A study of Mus musculus with 2 samples.

Results

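The respiratory chain subunits that the nuclear genome encodes were followed in luminal cells of the mouse mammary gland. Members were taken by symbol: those that start with Ndufa, Ndufb, Ndufc, Ndufs, Ndufv, Uqcr, Cox4 to Cox8 or Atp5, and Sdha, Sdhb, Sdhc and Sdhd, without Ndufaf genes and pseudogene symbols. This gave 84 of the 31017 symbols in the count matrices, 38 for complex I, 4 for complex II, 8 for complex III, 18 for complex IV and 16 for complex V. Of these, 83 had at least 1 unique molecular identifier (UMI) in the cells kept.

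Luminal cells had been collected by fluorescence-activated sorting from FVB/NJ mice aged 3.5 months. The WT library was made from Sox9-GFP mice and the C3-TAg library from Sox9-GFP;C3-TAg mice, so both carried the Sox9 reporter and differed by a transgene in which a rat prostate-protein promoter expresses the simian virus T antigens in the mammary epithelium. The sources used here do not give the number of mice pooled. Each genotype was 1 library, so no difference below has a replicate check and none carries a p-value.

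The respiratory chain sits in the inner mitochondrial membrane. Complexes I, III and IV pass electrons to oxygen and pump protons, complex II feeds in electrons from succinate, and complex V, the ATP synthase, lets the protons back to make ATP. Most subunits are nuclear-encoded, translated in the cytosol and imported, whereas the catalytic core of complexes I, III, IV and V includes subunits encoded and translated in the mitochondrion, so both genomes contribute to each of these complexes. In the mammary gland, hormone-sensing luminal cells carry oestrogen and progesterone receptors, and secretory cells use glucose heavily for milk synthesis.

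Cells were put into 3 states. A hormone-sensing cell had at least 5 UMIs of Areg, Pgr, Esr1 and Cited1 together per 10000, and the other cells were casein-high from 0.5% casein UMIs and casein-low below that. WT held 2715 hormone-sensing, 3746 casein-high and 575 casein-low cells, and C3-TAg held 2045, 2511 and 3429. The matrices held 91133082 UMIs in WT and 91932121 in C3-TAg, and 20 barcodes occurred in both (17 among cells kept). Kept cells had medians of 10296 and 8713 UMIs. The hormone-sensing list that the rule did not use (Prlr, Foxa1, Tnfsf11, Wnt4, Tbx3, Fxyd2 and Ly6a) summed to 4812 CPM (counts per total of 1000000 UMIs) in WT and 2514 in C3-TAg hormone-sensing cells, against 138 to 671 in the other states. Adipocyte and muscle marker lists, from tissues rich in respiratory chain transcripts, stayed near 0 CPM in all groups. The basal or myoepithelial list moved with genotype, at 19.9, 46.0 and 266 CPM in WT hormone-sensing, casein-high and casein-low cells and 142, 479 and 498 CPM in C3-TAg. In casein-high cells Krt14 held most of it, with a WT level of 26.4 CPM and a C3-TAg level of 462 CPM, whereas Krt5 stood at 0.620 and 0.0691 CPM. The secretory progenitor list, which includes milk protein genes, summed to 564, 21983 and 7360 CPM in WT and 424, 7077 and 1592 CPM in C3-TAg. The part of these lists in the genotype ratios below was not tested. The fibroblast list summed to 704 CPM in WT and 137 in C3-TAg hormone-sensing cells, of which Dcn alone held 703 and 134 CPM, whereas Lum was at 0 in both and Col1a1, Col3a1 and Pdgfra each stood below 0.5 CPM and Col1a2 at 0.0752 and 2.60 CPM. At least 2 UMIs of the fibroblast, endothelial and immune lists together were held by 47.1% of WT and 19.7% of C3-TAg hormone-sensing cells. The part of this difference in the genotype ratios was not tested. Mitotic cells, those with at least 5 UMIs of 20 mitotic markers per 10000, made up 0.147% of WT and 15.3% of C3-TAg hormone-sensing cells, 0.133% and 50.9% of casein-high cells, and 0.696% and 65.6% of casein-low cells.

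The promoters of 5 genes are shown because the results below turn on them. Of these, 3 belong to the genes of complexes I, III and IV that stood furthest above the casein-high level in WT hormone-sensing cells (Ndufa7, Uqcr11, Cox8a). A pair belongs to genes for the same ATP synthase subunit that differed in opposite directions there (Atp5g1, Atp5g2). The sequences are RefSeq's on GRCm38.p6, from 250 bases before to 50 after the gene start, written 5′ to 3′ along the gene. They are Cox8a (chr19:7217567-7217866, minus strand), Uqcr11 (chr10:80406772-80407071, minus strand), Ndufa7 (chr17:33824322-33824621, plus strand), Atp5g1 (chr11:96075582-96075881, minus strand) and Atp5g2 (chr15:102670998-102671297, minus strand). Capitals mark matches on either strand to the letters of a nuclear respiratory factor 1 (NRF1) core, GCATGCG, an ETS core as bound by GABP, CCGGAAG, or an E-box, CACGTG.
Cox8a: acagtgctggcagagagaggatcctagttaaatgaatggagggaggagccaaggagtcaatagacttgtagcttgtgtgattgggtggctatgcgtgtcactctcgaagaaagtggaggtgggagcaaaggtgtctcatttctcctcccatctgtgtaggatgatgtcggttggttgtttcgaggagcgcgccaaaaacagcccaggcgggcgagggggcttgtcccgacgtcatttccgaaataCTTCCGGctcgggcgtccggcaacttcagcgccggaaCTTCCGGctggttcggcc
Uqcr11: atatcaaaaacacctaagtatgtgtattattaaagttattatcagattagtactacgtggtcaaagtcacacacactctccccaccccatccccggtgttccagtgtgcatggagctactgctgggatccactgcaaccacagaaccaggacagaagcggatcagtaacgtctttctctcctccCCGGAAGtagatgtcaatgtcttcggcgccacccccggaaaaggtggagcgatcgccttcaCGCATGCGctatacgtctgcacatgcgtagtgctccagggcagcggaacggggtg
Ndufa7: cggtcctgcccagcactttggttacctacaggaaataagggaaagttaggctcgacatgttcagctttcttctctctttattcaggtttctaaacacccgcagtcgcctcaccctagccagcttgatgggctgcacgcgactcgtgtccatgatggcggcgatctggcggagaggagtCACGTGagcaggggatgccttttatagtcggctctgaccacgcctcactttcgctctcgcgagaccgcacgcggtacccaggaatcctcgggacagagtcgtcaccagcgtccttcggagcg
Atp5g1: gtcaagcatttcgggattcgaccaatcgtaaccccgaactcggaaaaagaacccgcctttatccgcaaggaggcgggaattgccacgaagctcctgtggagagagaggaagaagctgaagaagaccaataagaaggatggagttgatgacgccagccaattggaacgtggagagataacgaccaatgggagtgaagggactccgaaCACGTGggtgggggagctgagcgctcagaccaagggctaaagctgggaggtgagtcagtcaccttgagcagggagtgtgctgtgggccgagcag
Atp5g2: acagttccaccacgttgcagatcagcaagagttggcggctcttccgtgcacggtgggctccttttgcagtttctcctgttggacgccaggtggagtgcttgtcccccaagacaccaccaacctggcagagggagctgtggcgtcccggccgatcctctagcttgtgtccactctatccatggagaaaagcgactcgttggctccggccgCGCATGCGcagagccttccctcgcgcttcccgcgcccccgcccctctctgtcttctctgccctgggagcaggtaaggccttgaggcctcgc

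The promoter of Cox8a held the ETS letters at 2 places, that of Uqcr11 the NRF1 and the ETS letters, that of Atp5g2 the NRF1 letters, and those of Ndufa7 and Atp5g1 an E-box. In Uqcr11 and Atp5g2 the NRF1 match reads on both strands with an overlap, which gives the 8 capitals there. RefSeq promoters matched 69 of the 84 members. Among those not matched were Cox4i1, Cox4i2, Cox6a2, Cox6c, Cox8c, Ndufa2, Ndufa4l2, Ndufb9, Ndufs1, Sdhc, Uqcrb, Uqcrc2, Uqcrq and Atp5a1. The NRF1 letters lay in 14.5% of members' promoters, against 3.58% of all 32851 promoters of the same length and 4.44% of the 21263 of protein-coding genes. The ETS letters lay in 21.7% of members, against 8.86% of all and 11.6% of protein-coding promoters. The letters AAGATGG, of the factor YY1, lay in 14.5%, against 6.34% of all. AAGGTCA, the core site of oestrogen-related receptors, lay in 11.6% against 4.72%, and the E-box in 8.70% against 7.15%. Of the 69, 30 (43.5%) held NRF1, ETS or YY1 letters, against 17.3% of all and 20.3% of protein-coding promoters. For the ratio between states described next, the medians with and without them were alike and the ranges were not. In WT the median log2 ratio of hormone-sensing over casein-high cells was 0.51 both for the 30 measured members with such letters and for the 34 without. The ratios ran from 0.03 to 1.23 with the letters and from -0.30 to 1.60 without. Members with no matched promoter are in neither group, and a link to the letters was not tested. These matches are a description of letters in a window and say nothing of binding.

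In WT, hormone-sensing cells devoted more of their transcripts to the respiratory chain than the secretory cells beside them, in every complex. Members took 2.69% of UMIs in hormone-sensing, 1.84% in casein-high and 1.68% in casein-low cells. In C3-TAg the same shares were 2.347%, 2.241% and 1.9995%, so the spread between states was narrower, with a lower value in hormone-sensing cells and higher values in the other 2 states. The widest counting interval at 95%, that of WT casein-low cells, ran from 1.67% to 1.69%. Across single cells the medians were 2.69%, 1.82% and 1.59% in WT, and 2.35%, 2.21% and 1.95% in C3-TAg. The middle 50% of WT hormone-sensing cells lay between 2.34% and 3.06%, above that of WT casein-high cells, between 1.60% and 2.04%. In C3-TAg the corresponding ranges, 2.04% to 2.71% and 1.94% to 2.51%, overlapped.

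**Figure D1:**
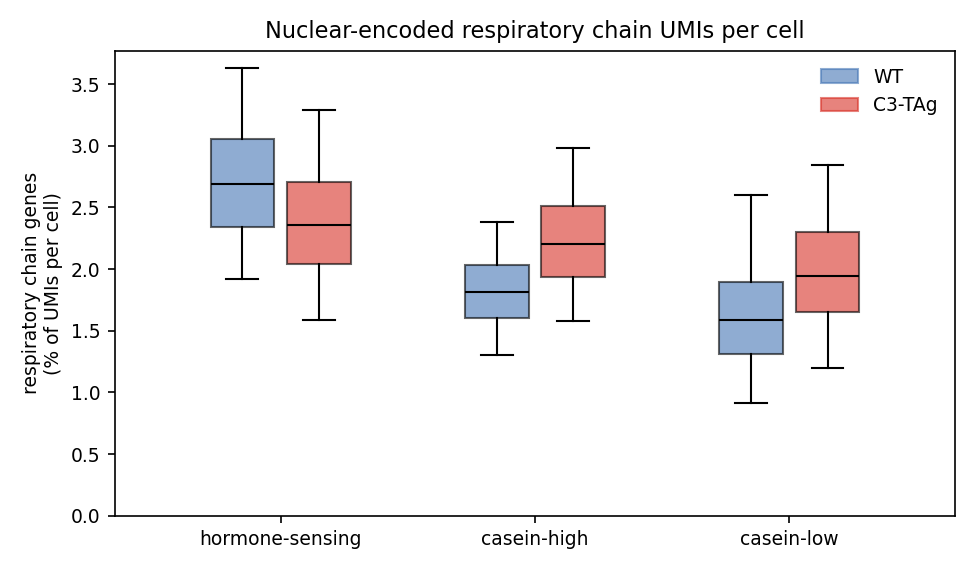
Share of each cell's UMIs from the nuclear-encoded respiratory chain genes, in percent, by state and library; the line is the median over cells, the box the middle 50% and the whiskers the 5th and 95th percentiles of cells of 1 library each. The WT boxes of hormone-sensing and casein-high cells do not overlap, and the C3-TAg boxes do.

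By complex, the share of UMIs in WT hormone-sensing, casein-high and casein-low cells was 0.839%, 0.564% and 0.501% for complex I, the NADH dehydrogenase. It was 0.0391%, 0.0270% and 0.0251% for complex II, 0.264%, 0.184% and 0.170% for complex III, 0.778%, 0.502% and 0.459% for complex IV, the cytochrome c oxidase, and 0.766%, 0.567% and 0.522% for complex V. Each complex had its highest WT share in hormone-sensing cells. Levels of different genes in these 3′ counts are not set against each other here, since capture may differ between transcripts. Over the 75 members measured in every comparison (a mean of at least 10 CPM and at least 20 UMIs over both groups), WT hormone-sensing cells had the highest level of all 6 groups for 51. WT casein-low cells had the lowest for 52. C3-TAg casein-high cells had the highest level for 15 members, C3-TAg casein-low cells for 7, and C3-TAg hormone-sensing cells for 2. This order was counted for members only, so no share over all genes stands beside it. The median of all genes measured was also higher in WT hormone-sensing than in WT casein-high cells, by 0.27 on the log2 scale.

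Between states in WT, 30 of 75 measured members were at or past 1.5-fold higher in hormone-sensing than in casein-high cells, where the background over all 7296 genes measured was 34.0%. None was at or past 1.5-fold lower, where the background was 15.3%. Among genes with a mean of at least 50 CPM, where most members lie, 29.0% were higher and 16.0% lower, beside 30 and 0 of 73 members. The median log2 ratio of members was 0.50 (95% interval over members 0.41 to 0.66), against 0.27 over all genes. Of the members, 69 of 75 had a counting interval above 0, a count not made over all genes. The ratio itself was above 0 for 72 of 75 members and for 4754 of 7296 genes at large. By complex, 16 of 37 members of complex I, 2 of 4 of complex II, 2 of 8 of complex III, 4 of 11 of complex IV and 6 of 15 of complex V were past 1.5-fold. Scaling with edgeR's TMM factors shifted ratios by 0.32 on the log2 scale in this comparison. It gave a median of 0.18 for members and -0.07 for all genes, and 8 members past 1.5-fold higher. The background shares above are for plain totals, and none is given under TMM.

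Among complex I genes, Ndufa7, an accessory subunit, had the largest difference between WT states. Its level was 699, 231 and 251 CPM in WT hormone-sensing, casein-high and casein-low cells, and 463, 255 and 209 CPM in C3-TAg cells of the same states. Both hormone-sensing values stood above the other 4. The log2 ratio of hormone-sensing over casein-high cells was 1.60 in WT, with a counting interval of 1.56 to 1.63, while C3-TAg had 0.86 (0.82 to 0.91). Ndufc1, a small accessory subunit, stood at 202, 93.8 and 82.7 CPM in WT and at 158, 131 and 141 CPM in C3-TAg, with log2 ratios of 1.10 and 0.27. Ndufab1, which is also the mitochondrial acyl carrier protein, stood at 235, 125 and 122 CPM in WT and at 179, 188 and 149.8 CPM in C3-TAg. The WT log2 ratio of 0.91 (0.86 to 0.96) and the C3-TAg ratio of -0.07 (-0.14 to -0.01) gave the widest gap between libraries among the 75. Ndufc2, another accessory subunit, was the lowest of complex I, at 180.5, 223 and 154 CPM in WT and 190.3, 283 and 219 CPM in C3-TAg, with casein-high cells highest in both libraries.

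The 4 subunits of complex II, the succinate dehydrogenase, were all higher in WT hormone-sensing than in WT casein-high cells under plain totals, though the log2 ratio of Sdhb, 0.21, was smaller than the TMM shift of 0.32 and so turned with it. Sdhc, a membrane anchor, stood at 96.0, 52.3 and 49.1 CPM in WT and at 76.0, 77.4 and 76.2 CPM in C3-TAg, where the 3 states lay together. Sdha, the flavoprotein, stood at 96.9, 61.2 and 55.0 CPM in WT and at 79.7, 82.2 and 62.0 CPM in C3-TAg. Sdhb, the iron-sulfur subunit, had the smallest difference, at 106, 92.2 and 86.9 CPM in WT and 103, 106 and 119.8 CPM in C3-TAg. Sdhd, the other anchor, stood at 91.5, 64.4 and 59.7 CPM in WT and 94.98, 89.1 and 93.7 CPM in C3-TAg. In C3-TAg the log2 ratio of hormone-sensing over casein-high cells lay between -0.04 and 0.09 for all 4.

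In complex III, the cytochrome bc1 complex, the small subunit Uqcr11 stood at 448, 206 and 179 CPM in WT and at 297, 216 and 167 CPM in C3-TAg. Uqcr10, another small subunit, stood at 286, 142 and 120.2 CPM in WT and at 211, 196 and 139 CPM in C3-TAg. For both genes WT hormone-sensing cells were the highest group, with WT log2 ratios over casein-high cells of 1.12 (1.08 to 1.16) and 1.01 (0.96 to 1.06). Uqcrfs1, the Rieske iron-sulfur protein, did not follow them, at 195, 193 and 170.4 CPM in WT and 204, 247 and 207 CPM in C3-TAg. Its log2 ratio between the WT states was 0.02 (-0.03 to 0.06), within counting error.

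In complex IV, Cox8a, a small membrane subunit, stood at 1432, 612 and 598 CPM in WT and at 1162, 811 and 649 CPM in C3-TAg. WT hormone-sensing cells were highest and C3-TAg hormone-sensing cells next, with log2 ratios over casein-high cells of 1.23 (1.20 to 1.25) and 0.52 (0.49 to 0.55). Cox4i1, the subunit through which ATP modulates the oxidase, stood at 1883, 1469 and 1294 CPM in WT and at 1550, 1467 and 1139 CPM in C3-TAg, where hormone-sensing and casein-high cells lay close. Cox7a2l, known for its part in respiratory supercomplexes, stood at 414, 286 and 270.4 CPM in WT and at 442, 361 and 367 CPM in C3-TAg.

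In complex V the genes for subunit c, the rotor ring, split by state. Atp5g1, Atp5g2 and Atp5g3 encode the same mature protein behind different import sequences. Atp5g2 stood at 932, 504 and 505 CPM in WT and at 763, 719 and 586 CPM in C3-TAg. Atp5g1 stood at 353, 416 and 318 CPM in WT and at 304, 504 and 324 CPM in C3-TAg. Atp5g3 stood at 289, 302 and 272 CPM in WT and at 273, 378 and 271 CPM in C3-TAg. Under plain totals Atp5g2 was thus highest in hormone-sensing cells, and Atp5g1 and Atp5g3 were highest in casein-high cells, in both libraries. The C3-TAg log2 ratio of Atp5g2 between these states, 0.09, turned to -0.08 with TMM scaling. Atp5g2 made up 59.2% (exact binomial interval 58.7% to 59.7%) of the UMIs of the 3 genes in WT hormone-sensing and 41.3% (40.9% to 41.7%) in WT casein-high cells. In C3-TAg the shares were 57.0% (56.3% to 57.6%) and 44.9% (44.5% to 45.4%). In casein-low cells they were 46.2% in WT and 49.6% in C3-TAg. The shares do not depend on how totals are scaled. An exon of Atp5g2 overlaps the microRNA gene Mir688 on the same strand.

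**Figure D2:**
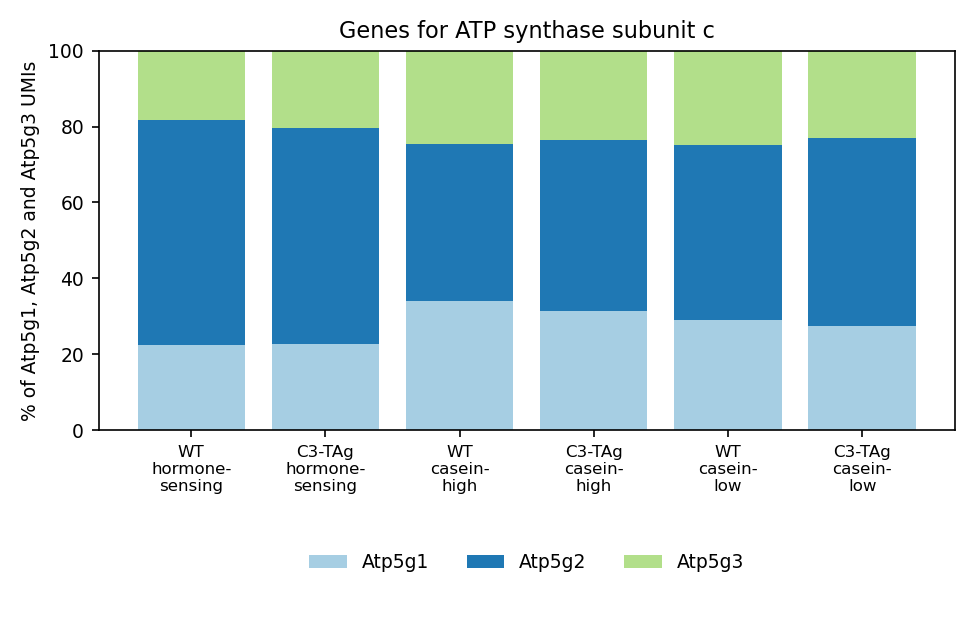
Percent of the UMIs of Atp5g1, Atp5g2 and Atp5g3 that each gene holds, by library and state, 1 library per bar. Atp5g2 holds 59.2% and 57.0% in hormone-sensing cells of WT and C3-TAg, and 41.3% to 49.6% in the other 4 groups.

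In C3-TAg the same contrast of states was smaller for nearly all members. Of 75, 2 (Ndufa7 and Ndufa13) were at or past 1.5-fold higher in hormone-sensing than in casein-high cells, against a background of 22.3%, and 1 (Atp5g1) was at or past 1.5-fold lower, against 13.7%. The median log2 ratio was 0.08 (-0.04 to 0.12), beside 0.09 over all genes, and TMM scaling turned both to below 0. The WT ratio exceeded the C3-TAg ratio for 74 of 75 members, by a median of 0.46 on the log2 scale, and for 60.9% of all 7038 genes measured in both, by a median of 0.13. With TMM scaling the WT ratio was larger for 71 of 75 members (median 0.30) and for 46.6% of all genes. Ndufa6, an accessory subunit, was the exception under plain totals, with log2 ratios of 0.41 in WT and 0.49 in C3-TAg. The order of the members was nevertheless alike in both libraries: across the 75 genes, which share library and total within each ratio and are not independent, Pearson's r was 0.82 and Spearman's rho 0.77, and over all 7038 genes they were 0.88 and 0.79.

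**Figure D3:**
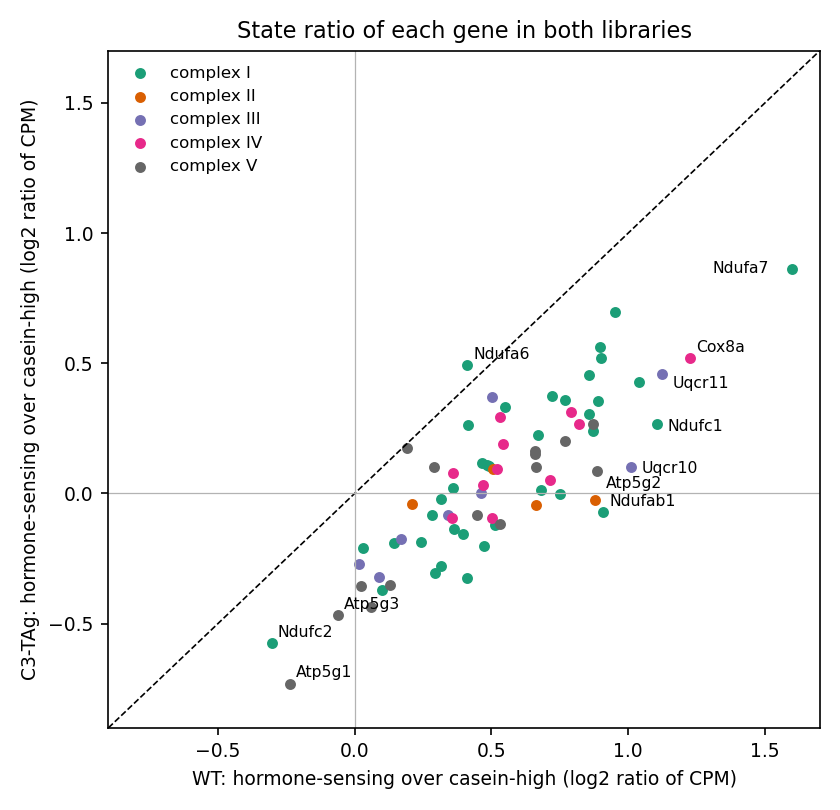
Log2 ratio of CPM in hormone-sensing over casein-high cells for each of the 75 measured members, WT on the horizontal and C3-TAg on the vertical axis, coloured by complex; the dashed line marks equal ratios. All but Ndufa6 lie below the line.

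The hormone-sensing rule bears on the C3-TAg value. In C3-TAg, 406 of 2045 hormone-sensing cells (19.9%) held only Areg among the 4 rule genes, against 31 of 2715 (1.14%) in WT. Areg encodes amphiregulin, a growth factor that oestrogen induces in hormone-sensing cells. Of those 406 cells, 59.1% were mitotic, against 4.39% of the rest. The median share of UMIs from members was 1.97% over those cells and 2.44% over the rest. In WT the 31 cells with only Areg also had a lower median share, 2.17% against 2.70% in the rest. Of the WT cells with only Areg 0% were mitotic, and of the rest 0.149%. The part of mitotic cells in these shares was not tested. With Areg left out of the rule, the C3-TAg median became 0.18 with 9 members at or past 1.5-fold higher, and the WT ratio was larger for 72 of 75 members, by a median of 0.43. With mitotic cells left out, the C3-TAg median was 0.15 with 7 members past 1.5-fold higher, and the WT ratio was larger for 73 of 75, by a median of 0.41. Both alternatives were chosen after the data were seen.

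The genotype ratio therefore ran in different directions in the states. In hormone-sensing cells the median log2 ratio of C3-TAg over WT was -0.18 (-0.22 to -0.15), with 61 of 75 members' counting intervals below 0 and 7 above. In casein-high cells it was 0.31 (0.25 to 0.35), with 3 intervals below 0 and 65 above. For 51 members the interval lay below 0 in hormone-sensing and above 0 in casein-high cells. Intervals were counted for members only, so no share over all genes stands beside these counts. By the sign of the ratio alone, 9 of 75 members and 4700 of 7752 genes at large were above 0 in hormone-sensing cells. In casein-high cells 69 of 75 members and 5357 of 7173 genes were. All genes measured had medians of 0.11 in hormone-sensing and 0.28 in casein-high cells, so members lay below the genes at large in the first state and with them in the second. TMM scaling shifted these comparisons by 0.18 and 0.34. It gave members -0.37 in hormone-sensing cells, beside -0.08 for all genes, and -0.03 in casein-high cells, beside -0.06 for all genes, so the higher level in casein-high cells depended on the scaling.

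Of the 75 measured members, 3 were at or past 1.5-fold lower in C3-TAg hormone-sensing cells (background 6.75%) and 0 were higher (background 15.5%). They were Ndufa7 and Uqcr11, with the levels given above and log2 ratios of -0.59 each, and Ndufs3, a core subunit of complex I, at 112 CPM in WT against 74.9 CPM in C3-TAg, also -0.59 (-0.68 to -0.49). All 3 lay at the threshold of 0.585, and with Areg left out of the rule, with mitotic cells left out, or with at least 10 rule UMIs required per 10000, the count was 0. At the other end Ndufs1, the largest complex I subunit, stood at 31.8 CPM in WT against 36.4 CPM in C3-TAg hormone-sensing cells, which is a log2 ratio of 0.20 (0.04 to 0.35). The TMM shift of 0.18 in this comparison takes up most of that ratio. With cells of at most 5% mitochondrial UMIs, which left 609 C3-TAg hormone-sensing cells, the median was -0.29 and 11 members were past 1.5-fold lower. The median lay between -0.37 and -0.12 over the alternatives run.

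In casein-high cells 2 of the 75 measured members were at or past 1.5-fold higher in C3-TAg (background 22.4%) and 0 were lower (background 7.82%). Ndufa4, classed by symbol with complex I and now known as a subunit of complex IV, stood at 989, 769 and 704 CPM in WT hormone-sensing, casein-high and casein-low cells and at 1059.9, 1166 and 1219 CPM in C3-TAg. Under plain totals each C3-TAg value was above each WT value. In hormone-sensing cells the difference was smaller than the TMM shift of 0.18 on the log2 scale and so turned with it. The log2 ratio of Ndufa4 was 0.60 (0.58 to 0.62) in casein-high cells. The other was Ndufab1, at 0.59 (0.54 to 0.64). With mitotic cells left out the count was 0 and the median 0.27. With TMM scaling neither was past 1.5-fold, and the counts were 0 higher and 1 lower. Atp5f1, a subunit of the ATP synthase stalk, had the highest ratio of complex V, at 357 CPM in WT against 529 CPM in C3-TAg casein-high cells, which is a log2 ratio of 0.57. Ndufa6 was lower in C3-TAg in all 3 states, against the members' median in casein-high and casein-low cells and with it in hormone-sensing cells, at 347, 261 and 252 CPM in WT and 282, 200.2 and 178 CPM in C3-TAg. Its log2 ratios of C3-TAg over WT were -0.30, -0.38 (-0.43 to -0.34) and -0.50 (-0.59 to -0.41), each C3-TAg value lying under the WT value of its state.

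**Figure D4:**
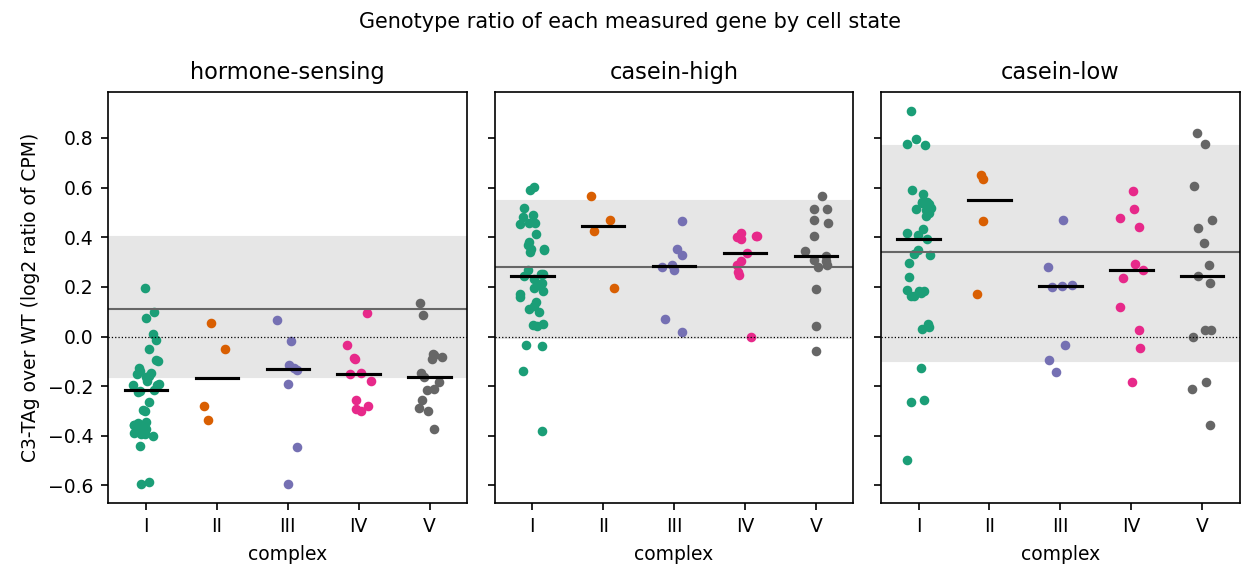
Log2 ratio of C3-TAg over WT CPM for the 75 measured members, 1 panel per cell state, grouped by complex, with a black bar at each complex's median; the grey line is the median and the grey band the middle 50% of all genes measured in that comparison. Most points lie below 0 in hormone-sensing cells (member median -0.18) and above 0 in casein-high cells (0.31).

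In casein-low cells members were higher in C3-TAg than in WT by about as much as the genes at large. There, 11 of 75 members were at or past 1.5-fold higher in C3-TAg (background 34.6%) and 0 were lower (background 11.3%), with a median log2 ratio of 0.29 (0.21 to 0.43) beside 0.34 over all genes. Ndufa5, an accessory complex I subunit, was highest, at 63.9 CPM in WT against 120.0 CPM in C3-TAg, which is a log2 ratio of 0.91 (0.74 to 1.08). Ndufa6 was lowest. TMM scaling gave a median of 0.05, with 1 member higher and 2 lower in place of 11 and 0, and Areg left out of the rule gave 0.10. The 2 casein-low groups were unlike. Their median casein share was 0.181% in WT and 0.0202% in C3-TAg. At least 2 UMIs of the fibroblast, endothelial and immune lists were held by 9.04% and 2.51% of cells. The immune list summed to 34.2 and 9.20 CPM and the endothelial list to 26.8 and 6.46 CPM. The part of these differences in the genotype ratio was not tested. Within libraries, casein-low cells stood slightly below casein-high cells: the median log2 ratio was -0.15 in WT, with 0 of 75 members past 1.5-fold either way (background 17.0% higher and 5.09% lower). In C3-TAg it was -0.09, with 0 past 1.5-fold higher (background 24.0%) and 1, Atp5g1, lower (background 5.85%). These counts depended on the scaling. TMM gave 15 members lower in WT and 20 in C3-TAg. A total without milk, mitochondrially encoded and ribosomal protein genes gave 1 and 10. With both scalings 0 members were higher. The background shares in this paragraph are for plain totals, and none is given under the other scalings, so these counts cannot be set against them. The WT median of -0.15 rested on 575 cells and turned to 0.08 with Areg left out of the rule.

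Within C3-TAg, mitotic cells were compared with the other cells of the same state. In casein-high cells the median log2 ratio of mitotic over other cells was 0.05 (0.03 to 0.09), beside 0.12 over all genes. It turned to -0.07 with TMM scaling and to -0.02 with a total without milk, mitochondrially encoded and ribosomal protein genes, so its direction is not fixed. No member was past 1.5-fold (background 6.98% higher and 0.757% lower). In casein-low cells it was 0.05 (-0.01 to 0.08), again with 0 of 75 (background 6.21% higher and 1.62% lower). Complex II had the highest median of the 5 complexes in both, 0.24 and 0.19. The mitochondrially encoded subunits had lower medians, at -0.15 and -0.10, with 0 of 12 and 0 of 13 above 0.

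Setting nuclear against mitochondrially encoded subunit UMIs gives a comparison in which the library total cancels. The 13 mitochondrially encoded subunits took 5.48%, 4.71% and 4.47% of UMIs in WT hormone-sensing, casein-high and casein-low cells and 5.49%, 4.30% and 3.88% in C3-TAg. There were 0.490, 0.391 and 0.375 nuclear UMIs per mitochondrially encoded UMI in WT and 0.427, 0.522 and 0.515 in C3-TAg. Hormone-sensing cells had the highest ratio in WT and the lowest in C3-TAg. The ratio in C3-TAg was 0.872 times that in WT in hormone-sensing cells (0.845 to 0.915 over 11 settings of the cell filters and state rules), 1.33 times in casein-high cells (1.24 to 1.39) and 1.37 times in casein-low cells (1.21 to 1.46). The settings of the casein share leave hormone-sensing cells unchanged, so they cannot move the 0.872. Hormone-sensing over casein-high cells gave 1.25 (1.21 to 1.36) for the WT library, whereas C3-TAg had 0.819 (0.792 to 0.929). In C3-TAg the ratio was 0.554 in mitotic and 0.485 in other casein-high cells, so that it stood above the WT value of 0.391 in both. In C3-TAg hormone-sensing cells it was 0.502 in mitotic and 0.414 in other cells, around the WT value of 0.490.

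Complexes I, III, IV and V, which draw subunits from both genomes, each showed this pattern. For complex I the ratio was 0.801, 0.585 and 0.563 in WT and 0.706, 0.778 and 0.753 in C3-TAg. For complex III it was 0.381, 0.336 and 0.338 in WT and 0.339, 0.435 and 0.419 in C3-TAg. In complex IV it was 0.282, 0.214 and 0.201 in WT and 0.246, 0.284 and 0.272 in C3-TAg. Complex V had 0.776, 0.665 and 0.657 in WT and 0.659, 0.869 and 0.893 in C3-TAg. In each complex the C3-TAg value was below WT in hormone-sensing cells and above WT in both other states. The mitochondrial share of UMIs was also a cell filter here, and its part in these ratios beyond the settings named was not tested.

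**Figure D5:**
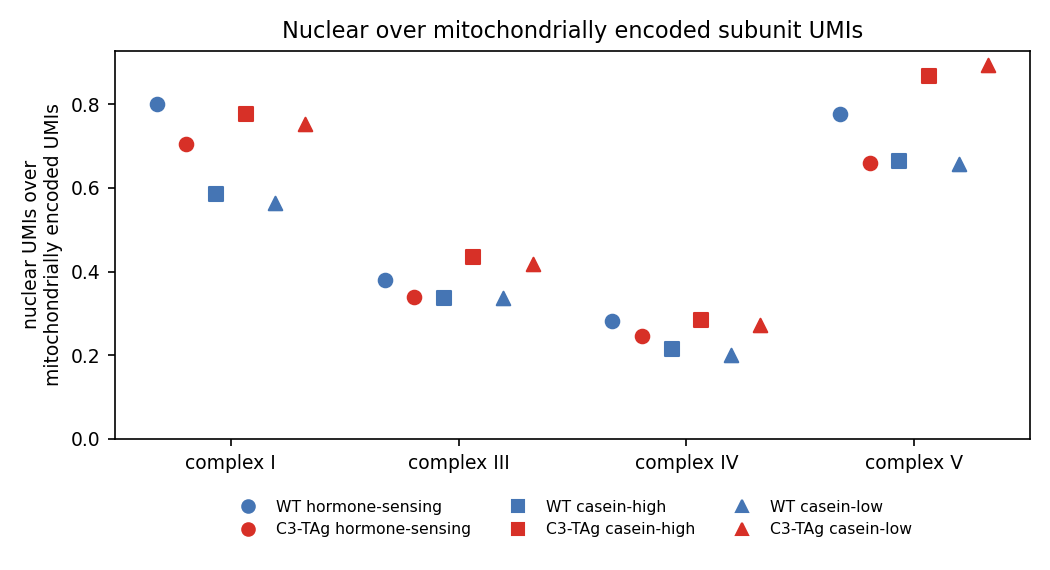
Nuclear-encoded UMIs divided by mitochondrially encoded UMIs of the same complex, by library (colour) and state (symbol), 1 library per point; complex II has no mitochondrially encoded subunit. In all 4 complexes the C3-TAg point is below the WT point in hormone-sensing cells and above it in casein-high and casein-low cells.

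The tissue-restricted forms were rare. Cox6a2, Cox8b and Cox8c, known from heart and muscle or testis, had 0 to 8 UMIs per group, and Cox7b2 had none. Cox7a1, the heart and muscle form, held 0.308% to 0.886% of the UMIs of Cox7a1, Cox7a2 and Cox7a2l. Ndufa4l2, which hypoxia induces, had 4 UMIs, all in 1 WT casein-low cell. Cox4i2, the form that lung and hypoxic cells use, had 6, 24 and 4 UMIs in WT hormone-sensing, casein-high and casein-low cells and 29, 6 and 105 in C3-TAg. The 105 UMIs lay in 93 of 3429 cells, and they made up 0.280% (0.229% to 0.339%) of Cox4i1 and Cox4i2 UMIs.

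Cox6b2, known as the testis form of a complex IV subunit, was higher in C3-TAg than in WT in each state, by unlike amounts. All its levels lay below 10 CPM, so it was not among the measured members and the counts above leave it out. No share over all genes at such low levels stands beside its ratios. It had 94, 84 and 5 UMIs in WT, or 3.53, 1.79 and 1.05 CPM, and 162, 205 and 327 UMIs in C3-TAg, or 9.35, 7.08 and 9.97 CPM. Every C3-TAg value was above every WT value. The log2 ratio of C3-TAg over WT was 1.40 (1.03 to 1.79) in hormone-sensing, 1.98 (1.61 to 2.36) in casein-high and 3.24 (2.003 to 4.87) in casein-low cells, where the WT side rests on 5 UMIs. Its share of Cox6b1 and Cox6b2 UMIs was 0.539%, 0.448% and 0.288% in WT and 1.68%, 1.33% and 2.27% in C3-TAg. After each cell was thinned to 2000 UMIs, a Cox6b2 UMI was found in 0.665%, 0.348% and 0.352% of WT and 1.72%, 1.752% and 1.59% of C3-TAg cells, and before thinning in 3.24%, 2.08% and 0.870%, and 6.94%, 7.09% and 7.47%. Within C3-TAg, Cox6b2 stood at 8.19 CPM in mitotic and 5.69 CPM in other casein-high cells, and at 11.3 CPM and 6.20 CPM in casein-low cells, so the cells that were not mitotic also lay above the WT levels. The part of free RNA in these low shares was not tested.

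Other genes of mitochondrial energy supply did not all follow the members. Assembly factors, which build the complexes, had 17 of 30 measured at or past 1.5-fold higher and 2 lower in WT hormone-sensing over casein-high cells, with a median log2 ratio of 0.64, beside the backgrounds of 34.0% higher and 15.3% lower over all genes given above. Sdhaf4, a complex II assembly factor, was at 47.1 CPM in WT hormone-sensing and 6.94 CPM in WT casein-high cells, and Cox17, the copper chaperone of complex IV, at 157 and 47.4 CPM, log2 ratios of 2.76 and 1.73. Glycolysis genes ran against the members, with 10 of 18 at or past 1.5-fold lower in WT hormone-sensing than casein-high cells, 1 higher, and a median of -0.94. Ldhb, a lactate dehydrogenase subunit, was at 14.3 CPM in WT hormone-sensing and 161.6 CPM in WT casein-high cells, and Slc2a1, the glucose transporter GLUT1, at 81.1 and 537 CPM.

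Between genotypes in casein-high cells, 8 of 18 glycolysis genes were at or past 1.5-fold lower in C3-TAg and 2 higher, beside backgrounds of 7.82% and 22.4%. Slc2a1 was at 537 CPM in WT against 124 CPM in C3-TAg, which is a log2 ratio of -2.12. Of the other lists in the same comparison, the TCA cycle had 2 of 18 higher and 1 lower, assembly factors 8 of 29 higher, protein import 5 of 23 higher, and biogenesis regulators 5 of 12 higher and 1 lower. The counts of assembly factors and protein import lay near the background of 22.4% higher. Timm50, an import receptor of the inner membrane, was at 28.1 CPM in WT against 69.7 CPM in C3-TAg, which is a log2 ratio of 1.31, and Tfam, which packages and transcribes mitochondrial DNA, at 17.3 and 34.9 CPM, 1.01. At the lower ends of the same lists, Pam16 of protein import had -0.09 and Ppard of the biogenesis regulators -0.72. The mitochondrially encoded subunits had 0 of 12 past 1.5-fold and a median of -0.11. In hormone-sensing cells the medians were 0.43 (-0.09 to 0.68) for biogenesis regulators, 0.12 (-0.17 to 0.25) for the TCA cycle and 0.13 (-0.01 to 0.30) for protein import, each with an interval that spans 0, beside 0.11 over all genes. Assembly factors had the members' median, -0.18, but their interval of -0.22 to 0.17 also spans 0, with 2 of 31 past 1.5-fold higher and 2 lower. The backgrounds in hormone-sensing cells were 15.5% higher and 6.75% lower. The TCA cycle and protein import medians were smaller than the TMM shift of 0.18 there and turned with it. Myc, a regulator of growth and mitochondrial biogenesis, was at 54.6 CPM in WT against 133 CPM in C3-TAg hormone-sensing cells, and Cycs, cytochrome c, at 193 and 302 CPM. These were the highest of their lists, with log2 ratios of 1.28 and 0.65. The lowest were Gabpb1 of the biogenesis regulators, at -0.57, and Coq8b of the cytochrome c and coenzyme Q list, at -0.82. That list had a median of -0.04 (-0.28 to 0.34), with 2 of 15 past 1.5-fold higher and 1 lower.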

How the data were processed

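Luminal cells of 1 WT and 1 C3-TAg library were profiled with a 3′ droplet kit, per the labels' protocols. The authors deposited UMI counts per gene and barcode, and the submitters' processing notes name Cell Ranger 3.1.0 and the build mm10. These counts are whole numbers and not normalized. The sources used here do not say how barcodes were called or how reads shared with pseudogenes were treated, and many members have processed pseudogenes. The symbol Atp5o names 2 rows, which were summed, and 1 of them held no UMI. Exons of Atp5g2, Atp5o, Ndufb2, Ndufb8 and Ndufb9 overlap another gene on the same strand, so reads there are uncertain.

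Barcodes with at least 500 genes, at least 1000 UMIs and at most 10% of UMIs from mitochondrially encoded genes were kept, 7406 of 8993 in WT and 8458 of 9575 in C3-TAg. Scrublet, as in scanpy 1.11.5, called 370 (5.00%) and 473 (5.59%) doublets, which were removed. Counts were summed per library and state with Python 3.11.15, numpy 2.4.6, scipy 1.17.1 and pandas 2.3.3, and divided by the total to give CPM. Intervals are at 95%, conditional Poisson for ratios and Clopper-Pearson for shares, both exact. They cover counting error only. Medians carry order-statistic intervals over members. A gene was measured from a mean of 10 CPM and 20 UMIs over both groups, and called at 1.5-fold. TMM factors came from edgeR 4.0.16 in R 4.3.3 as an alternative scaling, and no model was fitted. The ratio step was tested on simulated counts.

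The text names the highest and lowest member of each complex in a comparison (from 20 CPM), the isoform groups, the Sdh genes and genes at the ends of companion lists by genotype. Ndufa13, Ndufc1, Ndufs3 and Ndufab1, and Sdhaf4, Cox17 and Ldhb between states, were named after their values were seen. Members, lists and tests were chosen with earlier results of these data known.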

Additional observations from a re-analysis of the deposited data

Results flagged for a closer look

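The genotype ratio of the members had opposite signs in 2 cell states of the same libraries. The median log2 ratio of C3-TAg over WT was -0.18 in hormone-sensing cells, where 61 of 75 measured members had a counting interval below 0. It was 0.31 in casein-high cells, where 65 of 75 had one above 0. Such intervals were counted for members only, so no share over all genes stands beside them. TMM scaling turned the casein-high median to -0.03, beside -0.37 in hormone-sensing cells, so the opposite signs depended on the scaling. With 1 library per genotype the difference was not tested.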

How the results depend on the processing

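In the sentences below, medians are log2 ratios over members and counts are members at or past 1.5-fold in either direction. No share over all genes stands beside these counts, since the shares above are for plain totals and the main settings. TMM scaling turned the C3-TAg over WT median in casein-high cells to -0.030 and the mitotic median in casein-high cells to -0.068. It moved the C3-TAg over WT medians to -0.37 in hormone-sensing and 0.051 in casein-low cells, the casein-low over casein-high medians to -0.47 in WT and -0.38 in C3-TAg, and the hormone-sensing over casein-high medians to 0.18 in WT and -0.0865 in C3-TAg. Its counts for C3-TAg over WT were 5 (all lower), 1 (lower) and 3 (1 higher, 2 lower) in hormone-sensing, casein-high and casein-low cells, for hormone-sensing over casein-high cells 9 in WT (8 higher, 1 lower) and 5 in C3-TAg (1 higher, 4 lower), and for casein-low over casein-high cells 15 in WT and 20 in C3-TAg, all lower. These shifts follow from TMM's factors. A total without milk, mitochondrially encoded and ribosomal protein genes gave a mitotic median of -0.019 in casein-high cells, a C3-TAg over WT median of 0.20 and count of 7 (6 higher, 1 lower) in casein-low cells, casein-low over casein-high medians of -0.26 in WT (count 1) and -0.30 in C3-TAg (count 10, all lower), and a hormone-sensing over casein-high median of 0.41 in WT.

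For the settings on cells, the cause was not tested. With Areg left out of the rule, the casein-low over casein-high median turned to 0.084 in WT, the C3-TAg over WT medians were -0.12 (count 0) in hormone-sensing and 0.10 (count 7) in casein-low cells, the hormone-sensing over casein-high median in C3-TAg was 0.18 (count 10), and the mitotic median in casein-low cells was -0.015. With 10 rule UMIs per 10000 the WT casein-low over casein-high median was 0.020, the C3-TAg over WT median in casein-low cells 0.15 (count 6), and the counts 0 for C3-TAg over WT in hormone-sensing cells and 7 for the states in C3-TAg. With 3 rule UMIs the WT casein-low over casein-high median was -0.19 and the casein-high genotype count 1. A casein share from 0.2% gave the former as -0.092. With mitotic cells left out, the genotype counts were 0, 0 and 6, the hormone-sensing genotype median -0.14, and the C3-TAg state median 0.15 (count 8). At most 5% mitochondrial UMIs gave a hormone-sensing genotype median of -0.29 (count 11) and a C3-TAg state median of -0.041 (count 1). Thinning to 2000 UMIs gave hormone-sensing and casein-high genotype counts of 0 and 4 and a C3-TAg state count of 6, and no CPM minimum gave 5, 4 and 5. Keeping doublets, or leaving out cells with stromal, endothelial or immune UMIs, gave a casein-high genotype count of 1, and the latter a hormone-sensing genotype median of -0.22. The latter setting left 1437 of 2715 WT and 1642 of 2045 C3-TAg hormone-sensing cells.

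Of the alternative medians, 104 stayed within the 95% interval over members of the main median, 22 moved out of it and 5 turned. Of the alternative counts, 87 stayed within 1.5 times and 44 did not, and of the values of single genes 1454 stayed within their counting interval and 590 did not. The settings with no CPM minimum and with a mean of at least 50 CPM cannot change the value of a single gene. Their values are among the 1454 by construction. No paired analysis was possible because each genotype has 1 library. Depth limits Cox4i2, Cox6b2 and the other rare forms, which held few UMIs per group.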
